A study of Homo sapiens with 4 samples.

Results

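Interferon-stimulated genes are the genes that a cell switches on when it senses interferon or the nucleic acids of a virus. The 38 genes described here were taken by symbol, from a list that covers the signalling factors of the interferon response, its RNA sensors and its antiviral effectors. All 38 were present among the 26255 genes of the deposited tables. Of these, 32 reached 1 FPKM (a fragment count scaled to transcript length and sequencing depth) in at least 2 libraries and were tested, of 12701 genes tested in all.

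The cells were HCT116, an established human colorectal cancer line. The 2 control libraries came from cells that carried an empty vector (EV) per the labels, while their columns are named AAVS1, a locus commonly cut in editing controls. The 2 knockout (KO) libraries came from cells in which C14orf159 had been knocked out. C14orf159, now called DGLUCY, encodes a protein of the mitochondrial matrix. No treatment with interferon or with a virus is named in the labels. Nothing in the labels says that the replicates were separate cultures or clones, so the p-values reflect the spread between 4 libraries, which may be purely technical.

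The interferon response runs from sensors to signal to effectors. RIG-I-like receptors such as DDX58 and IFIH1 detect viral RNA and act through the adaptor MAVS and the factors IRF3 and IRF7 to induce interferons. Secreted interferon binds its receptors, whose kinases JAK1 and TYK2 activate STAT factors such as STAT2. STAT2 and IRF9 are part of the complex ISGF3, which binds a DNA element called the interferon-stimulated response element (ISRE) in the promoters of its target genes. Many of the targets are themselves sensors or signalling factors, so the response can amplify itself, and epithelial cells keep part of it expressed at a low level without any infection.

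The targeted gene had 16.2 and 16.4 FPKM in the controls, 2.52 in KO replicate 1 and 10.8 in KO replicate 2. Both KO libraries were lower than either control, but KO replicate 2 kept 66.2% of the EV control mean against 15.5% in KO replicate 1, and the difference did not pass the test (log2 difference -1.42, SE 0.57, adjusted p = 0.314 in limma-trend). In bulk RNA, fewer cells that express a gene and less of its RNA per cell cannot be told apart. A rough estimate from genes with a single transcript put the libraries at 12.5 to 13.4 M fragments, so 1 FPKM over 1 kilobase corresponds to about 13 fragments and low members rest on few. The epithelial marker list had a summed level of 3351 to 3716 FPKM, while VIL1 was listed at 0 in 3 libraries. Of 10 leukocyte markers 5 were listed at 0 in every library, the defining marker PTPRC among them, while CD68 (1.88 to 2.87 FPKM) and LYZ (0.702 to 1.31 FPKM) reached 1 FPKM. The leukocyte list had a summed level of 3.22 to 4.21 FPKM, and none of 10 fibroblast and endothelial markers reached 1 FPKM.

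The ISRE is shown first, because it is the sequence that most of these genes share whichever way their levels differed. Its core was searched as GAAA, any 2 bases and again GAAA, on both strands and with overlaps allowed, in windows from 250 bases before to 50 bases after each annotated start (RefSeq, GRCh38.p14). The core was found for 19 of the 26 tested members that had a window, or 73.1%, and for 363 of 10069 tested genes, or 3.61%. Among the 35116 windows of all genes, 3.57% held it. The members were named from interferon induction, so this share describes the list and is no finding of these cells. The stretches below are read 5′ to 3′ on the strand of the gene, with each occurrence of the core in capitals, the first of IFI6 being cut by the end of its stretch. The coordinates belong to GRCh38.p14, whereas the FPKM values rest on hg19, and no coordinate was used to obtain a level. The first 4 stretches belong to genes that were higher in both KO libraries, the next 2 to genes that were high in KO replicate 2 alone, and the last 2 to genes that were lower in both.
IFIH1, chr2:162318685-162318725, minus strand: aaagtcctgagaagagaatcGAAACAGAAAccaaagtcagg
IFI6, chr1:27672256-27672305, minus strand: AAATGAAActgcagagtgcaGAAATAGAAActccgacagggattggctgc
IFI27, chr14:94110621-94110670, plus strand: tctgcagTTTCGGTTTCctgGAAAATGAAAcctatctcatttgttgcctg
ISG20, chr15:88638927-88638976, plus strand: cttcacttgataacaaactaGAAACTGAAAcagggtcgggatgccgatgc
ISG15, chr1:1013370-1013419, plus strand: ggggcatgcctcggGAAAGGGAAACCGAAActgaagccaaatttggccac
IFITM3, chr11:320866-320915, minus strand: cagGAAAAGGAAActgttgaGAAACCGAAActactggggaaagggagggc
OAS3, chr12:112938442-112938473, plus strand: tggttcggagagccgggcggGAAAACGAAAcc
BST2, chr19:17405725-17405774, minus strand: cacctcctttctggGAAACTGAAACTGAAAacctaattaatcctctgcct
Genes on opposite sides of the controls thus carried the same core, though OAS3 and BST2 were not under 0.05 (limma-trend, unadjusted p = 0.0622 and 0.201). The stretches are examples, and only cores that ended before the start could be shown. EIF2AK2 and TRIM21, also lower in both KO libraries, had a core in their windows but none wholly before the start. UBE2L6, which was higher in both KO libraries, and ADAR, which was lower in both, had no exact match in their windows. DDX58, listed under its current symbol RIGI, STAT2, IRF1, IRF9 and IFI35 had none either.

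Members lay on both sides of the controls. No tested member passed the adjusted threshold over all genes (limma-trend, 0 of 32, with 8 at an unadjusted p under 0.05), against 0.110% of all tested genes. Of these 8, 5 were higher in the KO libraries (IFIH1, UBE2L6, IFI6, IFI27 and ISG20) and 3 were lower (EIF2AK2, ADAR and TRIM21). Over all tested genes 9.23% were higher and 7.22% lower at that unadjusted level. Small RNA genes held 67.7% to 70.9% of the summed FPKM of a library. With them left out, 0 of 12565 tested genes passed the adjusted threshold, and TRIM21 was no longer under the unadjusted level (limma-trend, unadjusted p = 0.0506). Both KO libraries lay above both EV controls for 9 members, against 26.5% of all tested genes, and below both for 7, against 25.6%. These counts of members are near the background shares. The median log2 difference of the members was 0.10, against 0.00 over all tested genes. For KO replicate 1 the median was 0.12, and for KO replicate 2 it was 0.01.

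**Figure D1:**
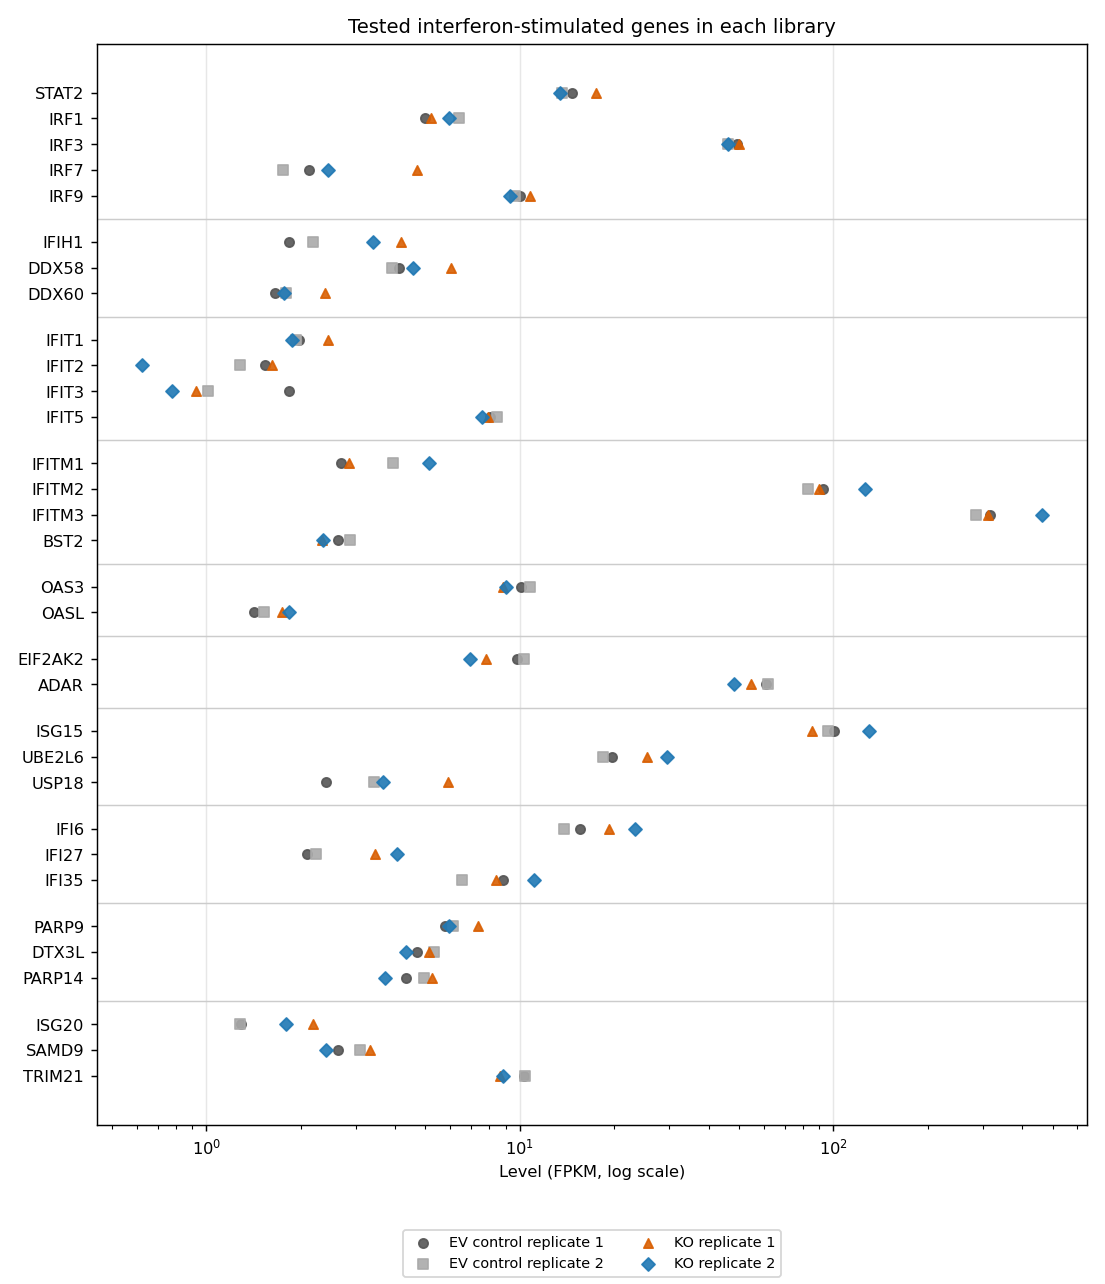
Level in FPKM (log scale, horizontal) of each of the 32 tested interferon-stimulated genes (vertical, grouped by role) in the 2 EV control and 2 KO libraries, 1 symbol per library. Levels run from below 1 FPKM for IFIT2 and IFIT3 to 464 FPKM for IFITM3, and the libraries lie close together for IRF3 and far apart for IRF7, IFIH1 and USP18.

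Among the signalling factors, IRF3 and STAT2 were the most abundant. IRF3, which is present before infection and is activated by phosphorylation, stood at 49.4 and 46.05 FPKM in the EV controls and at 49.9 and 46.2 in KO replicates 1 and 2, so the groups overlapped. IRF7, an inducible factor that amplifies interferon production, stood at 2.13 and 1.76 FPKM in the EV controls, 4.71 in KO replicate 1 and 2.44 in KO replicate 2. KO replicate 1 was far above the other 3 libraries, and KO replicate 2 was just above the controls. The fitted difference for IRF7 was 0.59 (SE 0.26) on the log2(FPKM + 1) scale and did not pass (limma-trend, adjusted p = 0.350). STAT2 had 14.7 and 13.7 FPKM in the EV controls, 17.4 in KO replicate 1 and 13.4 in KO replicate 2. IRF9, its partner in ISGF3, had 10.03, 9.63, 10.8 and 9.32 FPKM in the same order. For both partners KO replicate 1 lay above the controls and KO replicate 2 below them. IRF1, an activator induced mainly by interferon gamma, averaged 5.70 FPKM in the controls and 5.58 in the KO libraries.

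The RNA sensors were higher in KO replicate 1 in all 3 cases. IFIH1, which encodes the sensor MDA5 for long double-stranded RNA, stood at 1.84 and 2.18 FPKM in the EV controls and at 4.18 and 3.39 in KO replicates 1 and 2. Both KO libraries were well above both controls. Its difference of 0.67 (SE 0.14) was the widest of any tested member (limma-trend, unadjusted p = 0.00565, adjusted p = 0.192). DDX58, which encodes RIG-I, the sensor of RNA ends with a 5′ triphosphate, had 4.13 and 3.90 FPKM in the EV controls, 6.03 in KO replicate 1 and 4.55 in KO replicate 2. The groups did not overlap, with a difference of 0.32 (SE 0.14, adjusted p = 0.357 in limma-trend). DDX60, described as a cofactor of these sensors, had 1.66, 1.80, 2.39 and 1.77 FPKM. For DDX60 KO replicate 2 lay between the controls.

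EIF2AK2 and ADAR, 2 of the effectors that act directly on double-stranded RNA, were lower. EIF2AK2 encodes PKR, a kinase that halts translation when it binds such RNA. It stood at 9.79 and 10.3 FPKM in the EV controls and at 7.82 and 6.95 in KO replicates 1 and 2, both below both controls. The difference was -0.40 (SE 0.10, unadjusted p = 0.00998, adjusted p = 0.209 in limma-trend). ADAR, the enzyme that edits adenosine to inosine in double-stranded RNA, had 61.2 and 61.7 FPKM in the EV controls, 54.6 in KO replicate 1 and 48.05 in KO replicate 2. Again both KO libraries were lower, by a difference of -0.26 (SE 0.09, unadjusted p = 0.0413, adjusted p = 0.289). ADAR has a constitutive and an interferon-induced promoter, and a value per gene does not separate their transcripts. The sensor gene IFIH1 and these effector genes thus lay on opposite sides of the controls in both KO libraries, without passing the test over all genes.

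ISG15 is a ubiquitin-like protein that is joined to other proteins, UBE2L6 is the enzyme that carries it in conjugation, and USP18 removes it and also dampens signalling at the interferon receptor. UBE2L6 stood at 19.6 and 18.4 FPKM in the EV controls and at 25.5 and 29.5 in KO replicates 1 and 2. Both KO libraries lay above both controls, with a difference of 0.51 (SE 0.10, unadjusted p = 0.00473, adjusted p = 0.190 in limma-trend). ISG15 itself had 100.8 and 95.8 FPKM in the EV controls, 85.6 in KO replicate 1 and 130 in KO replicate 2. The KO libraries lay on opposite sides of the controls. USP18 had 2.40 and 3.44 FPKM in the EV controls, 5.89 in KO replicate 1 and 3.67 in KO replicate 2. KO replicate 1 was clearly the highest, while KO replicate 2 barely exceeded EV control replicate 2 (difference 0.55, SE 0.24, adjusted p = 0.343 in limma-trend). USP18 has a near-identical copy, USP41, that can share its reads, so its level is uncertain.

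Of the genes named IFI, 3 were tested. IFI6, a small mitochondrial and endoplasmic reticulum protein with antiviral and survival functions, stood at 15.5 and 13.8 FPKM in the EV controls and at 19.2 and 23.3 in KO replicates 1 and 2. IFI27, a related small membrane protein, had 2.09 and 2.25 FPKM in the EV controls and 3.46 and 4.07 in KO replicates 1 and 2. For both genes the KO libraries lay above both controls, with KO replicate 2 the highest. The differences were 0.50 for IFI6 (SE 0.12, unadjusted p = 0.0106) and 0.59 for IFI27 (SE 0.12, unadjusted p = 0.00539), and neither passed after adjustment (adjusted p = 0.209 and 0.190 in limma-trend). IFI35 had 8.82 and 6.54 FPKM in the EV controls, 8.37 in KO replicate 1 and 11.1 in KO replicate 2. There KO replicate 1 lay between the controls.

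IFI27 lies on the long arm of chromosome 14, as C14orf159 does. The 10 tested genes nearest to it in RefSeq order with a control mean of at least 1 FPKM, 5 on either side, were lower in KO replicate 1, where their median was 48.9% of the EV control mean and all 10 were below that mean. In KO replicate 2 their median was 92.3%, with 6 below it. IFI27 stood at 159.5% of the EV control mean in KO replicate 1 and at 187.7% in KO replicate 2. Its paralogs IFI27L1 and IFI27L2, which are among the 10, stood at 59.6% and 46.4% in KO replicate 1. In KO replicate 2 they stood at 107.3% and 115.1%, above the EV control mean as IFI27 was. IFI27 thus differed in direction from its 10 neighbours in KO replicate 1 only. The neighbours were chosen after the level of IFI27 had been seen.

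**Figure D2:**
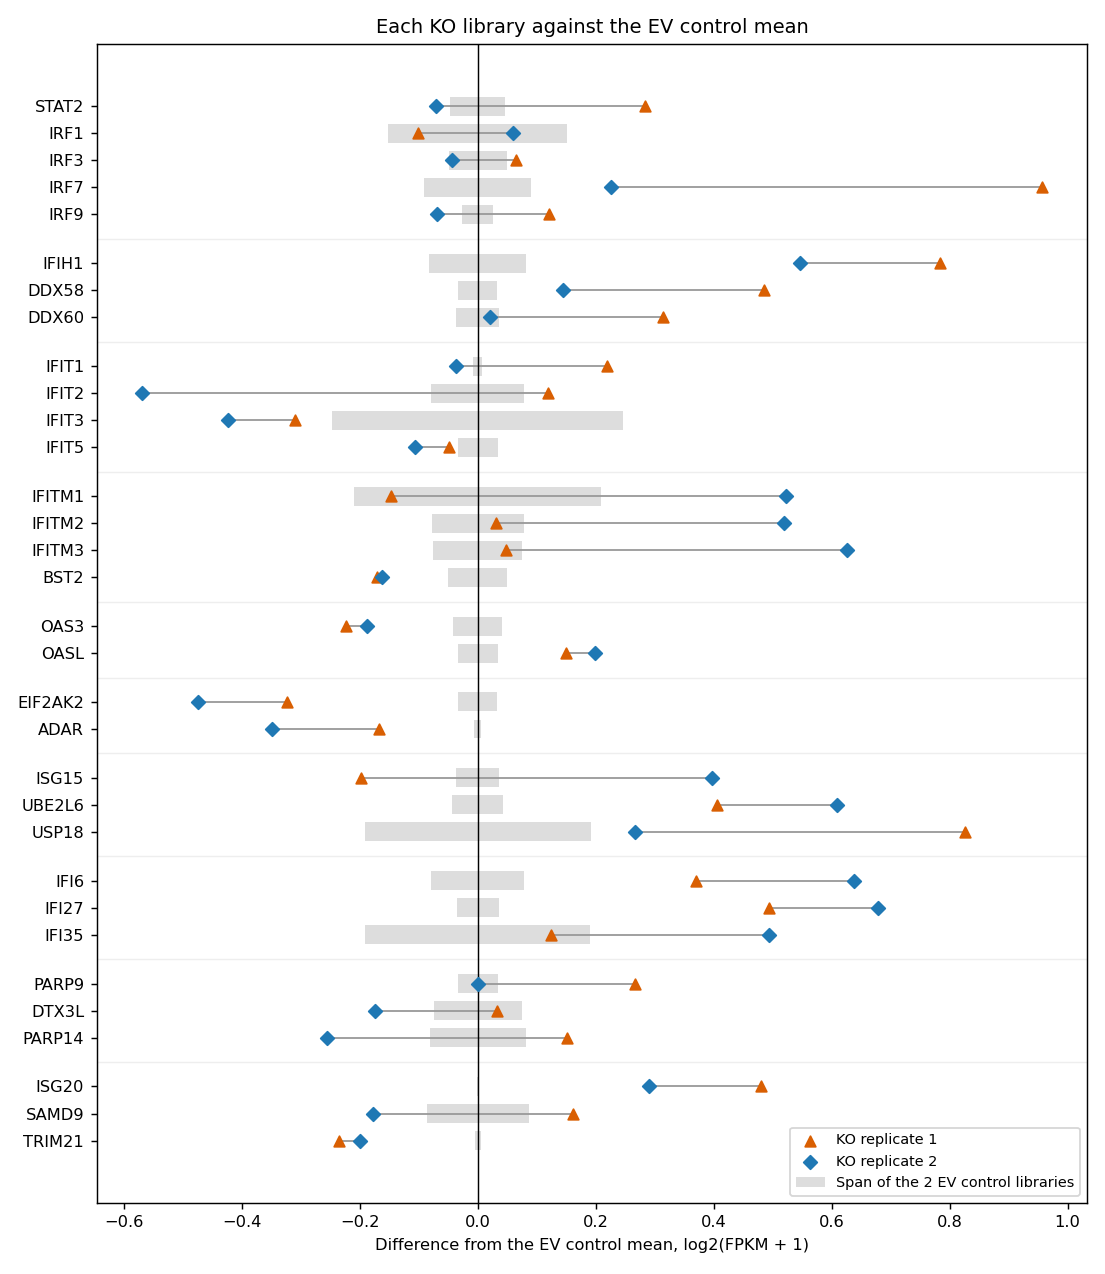
Difference of each KO library from the EV control mean on the log2(FPKM + 1) scale (horizontal) for the 32 tested members (vertical, grouped by role). Grey bars span the 2 EV control libraries, and a line joins the KO libraries. IRF7 (0.96 and 0.23) and USP18 (0.83 and 0.27) were high chiefly in KO replicate 1, IFITM3 (0.05 and 0.63) in KO replicate 2, and EIF2AK2 (-0.32 and -0.47) was low in both.

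The membrane proteins that block virus entry or release were among the most abundant members. IFITM3, which hinders fusion of viruses in endosomes, stood at 316 and 285 FPKM in the EV controls, 310 in KO replicate 1 and 464 in KO replicate 2. IFITM2 had 92.9 and 83.3 FPKM in the EV controls, 89.8 in KO replicate 1 and 126 in KO replicate 2. For IFITM1 the values were 2.69, 3.94, 2.86 and 5.13 FPKM. In all 3 genes KO replicate 1 lay between the controls and KO replicate 2 was the highest library. The IFITM genes are near-identical neighbours that can share reads, so the split between them is uncertain. BST2, or tetherin, which holds budding virus at the cell surface, had 2.62, 2.88, 2.33 and 2.35 FPKM, with both KO libraries below both controls (difference -0.17, SE 0.11, adjusted p = 0.503 in limma-trend).

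The IFIT family includes IFIT1, which binds viral RNA that lacks the cap modification of the host. IFIT5, the most abundant of the 4, had 8.03 and 8.46 FPKM in the EV controls and 7.94 and 7.58 in KO replicates 1 and 2. IFIT3 had 1.83 and 1.01 FPKM in the EV controls and 0.924 and 0.778 in the KO libraries. Both of its KO values were below both controls, but the controls themselves differed more from each other than the KO libraries did from EV control replicate 2 (difference -0.37, SE 0.21, adjusted p = 0.438 in limma-trend). IFIT3 reached 1 FPKM in the EV controls only, so it could be tested only because it was higher there. IFIT2 had 1.54, 1.28, 1.61 and 0.623 FPKM, with KO replicate 2 alone far below the rest. IFIT1 had 1.97, 1.94, 2.44 and 1.88 FPKM.

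The OAS enzymes are activated by double-stranded RNA and make short oligoadenylates as an antiviral signal. OAS3 stood at 10.1 and 10.8 FPKM in the EV controls and at 8.81 and 9.05 in the KO libraries, both lower (difference -0.21, SE 0.08, adjusted p = 0.325 in limma-trend). OASL, a related protein without that enzyme activity, had 1.41, 1.53, 1.74 and 1.84 FPKM, with both KO libraries higher. OAS1 stood at 0.107 to 0.448 FPKM and OAS2 at or below 0.0777 FPKM, and neither was tested.

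ISG20, an RNA exonuclease, stood at 1.29 and 1.28 FPKM in the EV controls and at 2.19 and 1.79 in KO replicates 1 and 2. Both KO libraries were higher, by a difference of 0.39 (SE 0.14, unadjusted p = 0.0375, adjusted p = 0.281 in limma-trend). TRIM21, a cytosolic antibody receptor and ubiquitin ligase, had 10.3 and 10.4 FPKM in the EV controls and 8.62 and 8.86 in the KO libraries. The controls nearly coincided and both KO libraries were lower (difference -0.22, SE 0.08, unadjusted p = 0.0454, adjusted p = 0.296). PARP9 and its partner DTX3L, an ADP-ribosyltransferase and ubiquitin ligase pair, averaged 5.94 and 5.01 FPKM in the controls and 6.64 and 4.73 in the KO libraries. For PARP14 the means were 4.64 and 4.49 FPKM, and for SAMD9 they were 2.87 in both groups. In these last 4 genes KO replicate 1 was higher than KO replicate 2.

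The other 4 members below the minimum level were MX1, IFI44, IFI44L and XAF1. MX1, a GTPase that blocks incoming virus, stood at 0.341 and 0.312 FPKM in the EV controls and at 0.446 and 0.190 in KO replicates 1 and 2. IFI44 had 0.407 and 0.528 FPKM in the EV controls and 0.144 and 0.186 in the KO libraries. IFI44L had 0.0121 and 0.0117 FPKM in the EV controls and XAF1 0.0433 and 0.0211, and both were listed at 0 in the KO libraries. No untested member exceeded 0.528 FPKM in any library, and no fold is given at these levels.

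The KO libraries were also compared with the EV controls 1 at a time, since they differed from each other. In a fit with a single KO library its spread is taken from the controls. In KO replicate 1 alone 5 members were higher and 0 lower at an adjusted p under 0.05 in limma-trend, against 6.29% and 6.94% of all tested genes. They were IRF7 (log2 difference 0.96), USP18 (0.83), IFIH1 (0.78), DDX58 (0.49) and UBE2L6 (0.41). In KO replicate 2 alone 7 members were higher and 2 lower, against 10.9% and 6.62% of all tested genes. The higher ones were IFI27 (0.68), IFI6 (0.64), IFITM3 (0.63), UBE2L6 (0.61), IFIH1 (0.55), IFITM2 (0.52) and ISG15 (0.40), and the lower ones EIF2AK2 (-0.47) and ADAR (-0.35). UBE2L6 and IFIH1 were called in both fits, which share the EV control libraries. IFIH1 came close to the threshold in KO replicate 2 (adjusted p = 0.0485, against 0.0262 in KO replicate 1).

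Without regard to a threshold, 18 tested members lay above both EV controls in KO replicate 1 and 8 below, against 41.3% and 42.8% of all tested genes. In KO replicate 2, 14 lay above and 14 below, against 45.7% and 41.4%. For 7 members (STAT2, IRF9, IFIT1, IFIT2, ISG15, PARP14 and SAMD9) the KO libraries lay on opposite sides of both controls, against 22.8% of all tested genes. The median distance between the KO libraries was 0.25 on the log2 scale for the members, and that between the EV controls 0.10. Over all tested genes these distances were 0.17 and 0.07.

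Of the 7 members called higher in KO replicate 2 alone, all but IFIH1 had transcripts shorter than 2104 nt, a bound chosen after the data were seen, and transcript length moved with the levels of that library over the whole table. Tested genes other than small RNA genes were divided into 20 bins by transcript length. In KO replicate 2 the median log2 difference ran from 0.19 in the shortest bin, with a median length of 808 nt, to -0.16 in the longest, while in KO replicate 1 it stayed between -0.02 and 0.02. Below 2104 nt, 10 of 14 members lay above both EV controls in KO replicate 2, against 65.2% of all tested genes of that length. Above it this held for 4 of 18 members, against 39.6%. The medians of the short and the long members were 0.45 and -0.09 in KO replicate 2 and 0.09 and 0.15 in KO replicate 1.

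After a correction of each library for transcript length and GC content, chosen after the data were seen, the short and long members had medians of 0.23 and 0.02 in KO replicate 2. ISG15 moved from 0.40 to 0.13 in that library, IFITM3 from 0.63 to 0.42, IFI27 from 0.68 to 0.45 and EIF2AK2 from -0.47 to -0.27. IFIH1, whose transcript is 3595 nt long, moved from 0.55 to 0.60. IRF7 stood at 0.96 in KO replicate 1 before and after the correction, but moved from 0.23 to -0.01 in KO replicate 2. USP18 stood at 0.83 in KO replicate 1 both times and moved from 0.27 to 0.20 in KO replicate 2. UBE2L6, IFI6, IFI27, ISG20 and IFIH1 were thus higher and EIF2AK2, ADAR and TRIM21 lower in both KO libraries after the correction too, and 0 members passed the adjusted threshold in limma-trend. At an unadjusted p under 0.05 in limma-trend 5 were again higher and 3 lower, against 9.84% and 8.77% of the 12001 genes tested there. ISG20 was no longer among the 5 (limma-trend, unadjusted p = 0.0854) and DDX58 was (unadjusted p = 0.0317).

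**Figure D3:**
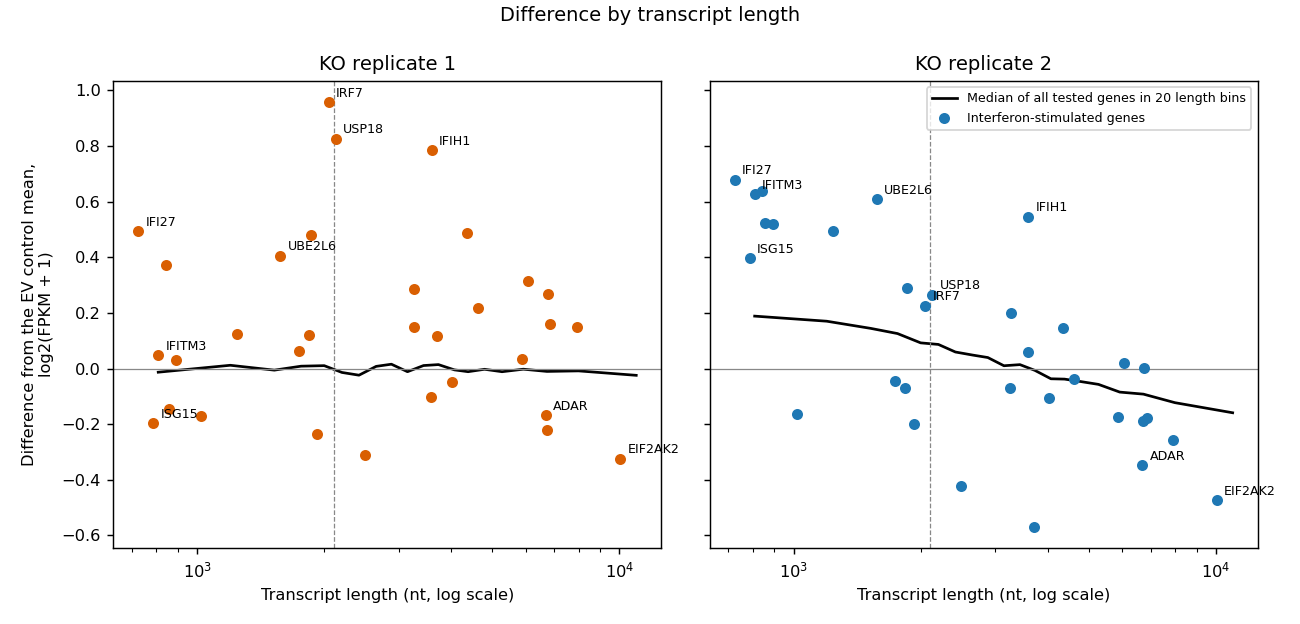
Difference from the EV control mean on the log2(FPKM + 1) scale (vertical) against transcript length in nt (log scale, horizontal) for KO replicate 1 (left) and KO replicate 2 (right). Points are the 32 tested members, the line is the median of all tested genes in 20 length bins, and the dashed line marks 2104 nt. The line is flat in KO replicate 1 and runs from 0.19 to -0.16 in KO replicate 2.

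The interferon genes themselves were scarcely detected. Of 21 interferon genes 14 were listed at 0 in every library, including IFNB1 and IFNG, and no gene but IFNE exceeded 0.365 FPKM, the value of IFNL3 in KO replicate 2. IFNE, an interferon of mucosal epithelium, had 1.08 and 0.844 FPKM in the EV controls, 2.07 in KO replicate 1 and 0.558 in KO replicate 2, so the KO libraries lay on opposite sides of the controls (adjusted p = 0.840 in limma-trend). All 9 receptor and kinase genes described were tested, with a median difference of 0.07 and 0 past the adjusted threshold. At an unadjusted p under 0.05 in limma-trend there were 0, against 9.23% higher and 7.22% lower over all tested genes.

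Among the receptor chains, IFNAR1 had 7.90 and 9.02 FPKM in the EV controls and 7.46 and 7.70 in KO replicates 1 and 2, while its partner IFNAR2 had 7.999, 8.69, 9.50 and 10.5. The KO libraries thus lay below the controls for the first chain of the type I receptor and above them for the second (adjusted p = 0.526 and 0.324 in limma-trend). IFNLR1 and IL10RB, the chains of the type III receptor, averaged 3.59 and 10.2 FPKM in the controls and 4.32 and 12.1 in the KO libraries. IFNGR1 averaged 18.7 FPKM in the controls and 21.1 in the KO libraries, and IFNGR2 24.3 and 25.3. The kinase genes JAK1, TYK2 and JAK2 averaged 21.3, 16.4 and 2.02 FPKM in the controls and 22.4, 15.7 and 1.83 in the KO libraries.

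**Figure D4:**
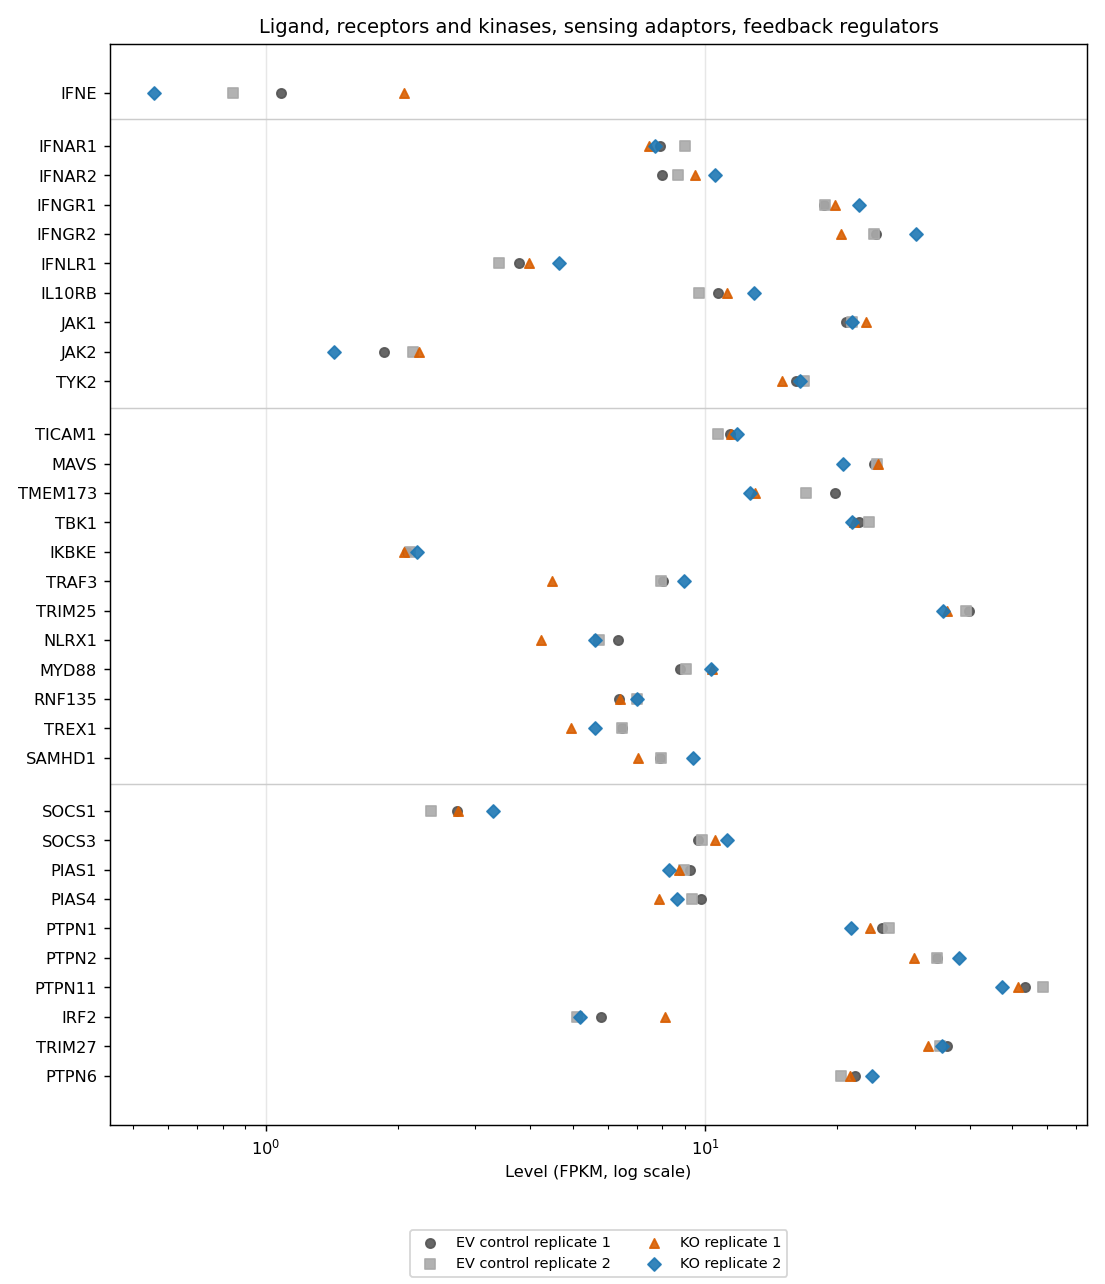
Level in FPKM (log scale, horizontal) of the tested interferon ligand, receptor and kinase, sensing adaptor and feedback regulator genes (vertical) in each library. TMEM173 is lower in both KO libraries (12.97 and 12.69 FPKM) than in both EV controls (19.8 and 16.9 FPKM), and TRAF3 is low in KO replicate 1 alone.

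Of 12 tested sensing adaptors described, 0 passed the adjusted threshold, and their median difference was -0.09. At an unadjusted p under 0.05 in limma-trend 0 were higher and 1 was lower, against 9.23% and 7.22% of all tested genes. TMEM173 encodes STING, the adaptor of cytosolic DNA sensing. It stood at 19.8 and 16.9 FPKM in the EV controls and at 12.97 and 12.69 in KO replicates 1 and 2, both lower (difference -0.48, SE 0.10, unadjusted p = 0.0059, adjusted p = 0.194). TREX1, a DNase that limits DNA sensing, averaged 6.47 FPKM in the controls and 5.28 in the KO libraries, and the adaptor gene MYD88 8.91 and 10.3. TRIM25, a ubiquitin ligase of the RIG-I pathway, averaged 39.6 and 35.1 FPKM. MAVS, the adaptor of the RNA sensors, averaged 24.4 and 22.6 FPKM. The remaining 5 genes of that list were below 1 FPKM in every library. Among them TLR3 reached at most 0.966 FPKM, DHX58 at most 0.615, MB21D1, which encodes the DNA sensor cGAS, at most 0.046 and IFI16 at most 0.029, and ZBP1 was listed at 0 in every library. TRAF3, on chromosome 14, had 8.03 and 7.95 FPKM in the EV controls, 4.50 in KO replicate 1 and 8.94 in KO replicate 2. Feedback regulators gave 0 of 10 at an unadjusted p under 0.05 in either direction, against the same 9.23% and 7.22%. Their median was -0.03. Those with the smallest p-values were PIAS4 (on average 9.57 FPKM in the controls and 8.23 in the KO libraries), PTPN1 (25.8 and 22.6), PTPN11 (56.1 and 49.5) and SOCS3 (9.72 and 10.9).

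A further list of 44 interferon-induced genes outside the 38 was examined, of which 26 were tested. In it 0 genes passed the adjusted threshold, and at an unadjusted p under 0.05 in limma-trend 4 were higher and 1 lower, against 9.23% and 7.22% of all tested genes, with a median difference of 0.09. C19orf66, which encodes an inhibitor of ribosomal frameshifting in viral RNA, stood at 8.68 and 7.66 FPKM in the EV controls and at 15.3 and 12.2 in KO replicates 1 and 2, both higher (difference 0.68, SE 0.14, unadjusted p = 0.00464, adjusted p = 0.189 in limma-trend). The others higher at that level were TDRD7 (on average 6.58 FPKM in the controls and 8.18 in the KO libraries), PHF11 (6.24 and 8.02) and BATF2 (0.984 and 1.72). ZC3HAV1, the zinc-finger antiviral protein gene, was the lower one, with 12.2 and 12.1 FPKM in the EV controls and 10.5 and 8.02 in the KO libraries. RSAD2 reached at most 0.066 FPKM, and CXCL10, RTP4 and GBP1 were listed at 0 in every library.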

How the data were processed

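Libraries of HCT116 cells, made from total RNA with a TruSeq stranded mRNA kit per the labels' protocols, were deposited as FPKM per gene symbol, 1 table per library. The submitters' processing notes name Cuffnorm 2.2.1, Bowtie2 2.2.3, TopHat2 2.0.13 and SAMtools 0.1.19, with the build hg19. How the authors scaled libraries, used strand or chose an annotation is not stated in these sources.

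Genes with at least 1 FPKM in at least 2 of 4 libraries were tested on log2(FPKM + 1), which understates changes of low genes, with limma 3.58.1 (trend, group as the sole term, 2.82 prior degrees of freedom) in R 4.3.3. P-values were adjusted by Benjamini-Hochberg over 12701 genes, with a threshold of 0.05. Differences are KO minus EV control, and SE is moderated. The script was tested on simulated data.

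Members and lists were chosen with earlier results of these data known. The rule for the 16 members refitted under every alternative was an unadjusted p under 0.05, groups that did not overlap and differed by at least 0.3, or a place among the 6 most abundant. Library values of other members are given to account for every member. Of the other lists, up to 4 genes with the smallest p-values were named, with all receptors, kinases and expressed ligands. TRAF3, MAVS, ZC3HAV1 and the genes of these lists below 1 FPKM fall outside this rule and were chosen after seeing their values. Genes of the pathway lists that are withheld are not reported here or counted in their lists. Transcript lengths and GC content come from GENCODE release 29. Promoter windows (RefSeq, GRCh38.p14) matched 31 of 38 members. Alternatives were other pseudocounts, filters, scalings and variance models, a replicate block, each library left out, and small RNA genes left out. A GC and length correction was added after seeing the data.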

Additional observations from a re-analysis of the deposited data

How the results depend on the processing

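With 2 libraries per group, 1 library can decide a value. The counts of members at an unadjusted p under 0.05 were 5 higher and 3 lower, with 0 past the adjusted threshold and a median difference of 0.10. Leaving out 1 library at a time gave 4 to 10 higher, 0 to 5 lower, 0 to 9 past the adjusted threshold and medians of 0.0113 to 0.12, the lone library being assumed to vary like the others. The 9 were without KO replicate 1 and the count was 5 without KO replicate 2. Without EV control replicate 1 or 2 the lower count was 0. Over all tested genes the shares at that unadjusted level, higher and lower, fell when 1 EV control library was left out. They rose when 1 KO library was left out. The count of higher members moved in the same direction as the higher share. Whether the members differed from all tested genes in these fits was not tested. A filter at 5 FPKM, under which 17 members were tested, gave 2 higher (UBE2L6 and IFI6), against 8.93% of the genes tested. IFIH1, IFI27 and ISG20 fell below that filter. No filter gave a median of 0.0183 over 38 members. Without the trend 1 was lower, against 6.80% of all tested genes. With the replicate block 5 were higher and 1 lower, against 7.55% and 4.59%, and 0 passed. Among these 5, IRF7 (limma-trend with the block, unadjusted p = 0.0213) took the place of ISG20 (unadjusted p = 0.0693). The replicate numbers share nothing else in the labels, and the deviations of replicate 1 in both groups had a correlation of -0.0088 across 9177 genes. IRF3 turned lower with quantile normalization (-0.000297), without EV control replicate 2 (-0.04), without KO replicate 1 (-0.0437) and with the GC and length correction (-0.0926), and ran from -0.0437 to 0.0647 when 1 library was left out. ISG15 turned lower without KO replicate 2 (-0.197) and with that correction (-0.0329), and ran from -0.197 to 0.397 when 1 library was left out. The other 14 members chosen by the rule for named genes kept their direction in every alternative in which they were tested. Other members were not refitted one by one, but the KO libraries differ from the control mean in opposite directions for STAT2, IRF1, IRF9, IFIT1, IFIT2, IFITM1, DTX3L, PARP14 and SAMD9, so 1 KO library sets the sign of each. The cause of these shifts was not tested.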
